A study of Homo sapiens with 8 samples.

Results

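Zinc finger genes with ZNF symbols on human chromosome 19 were followed in RNA sequencing libraries of SK-N-SH cells, an established human neuroblastoma line that holds cells of adrenergic and mesenchymal character. Of 249 protein-coding genes with such symbols on this chromosome, 217 were kept as members because their raw counts summed to at least 1000 over the 8 libraries. The members were thus chosen on measured counts, and their levels are given as a description. Of the other 32 genes, ZNF723 had no counts at all. Just outside the minimum lay ZNF563 with a summed count of 953 and ZNF223 with 920, and just inside lay ZNF404 with 1003 and ZNF497 with 1016. All 217 members passed the filter on low counts in every comparison, among 60659 genes in the whole table.

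Most of these genes encode proteins with arrays of C2H2 zinc fingers, each of which folds around a zinc ion and contacts a few bases of DNA. Many also carry a KRAB box, a short repression domain that binds TRIM28 (KAP1), which in turn brings SETDB1 and HP1 proteins to write and bind the silencing mark H3K9me3. The genes arose by repeated duplication and stand in clusters along chromosome 19, and a number of them silence particular families of retrotransposons.

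The study asked how ZMYND8, a reader of histone marks with a MYND domain, shapes transcription while SK-N-SH cells differentiate under all-trans retinoic acid (ATRA). Ribosomal RNA-depleted total RNA was sequenced from 4 groups of 2 libraries each, and all groups had received 10 μM ATRA for 24 h according to the labels. In the overexpression experiment, the group "FLAG ZMYND8+RA+Dox treated" carried FLAG-tagged ZMYND8 behind a doxycycline (Dox) inducible promoter in a lentiviral vector, with stable transductants selected by G418, and the group "parental cells+RA+Dox treated" received Dox without that vector. In the knockdown experiment, "ZMYND8 KD+RA" was compared with "Control KD+RA". The paper describes lentiviral short hairpin RNAs with puromycin selection for other cells than SK-N-SH, for which it describes a ZMYND8 knockout. The method behind these knockdown libraries is thus uncertain, and the vector of their control group is not given in the sources used here. The labels of the knockdown experiment name no Dox, so the experiments differ in vector and in Dox. The labels call the 2 libraries of a group biological replicates, and p-values rest on the spread between these libraries.

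The libraries held between 38316523 and 56256979 counts on genes, and the members took between 0.388% and 0.569% of them. ZMYND8 itself stood at 72.7 and 69.9 CPM (normalised counts of a gene relative to the library total, scaled with TMM factors) in the parental libraries and at 4102 and 4155 in the overexpression libraries, where reads of the transgene are included. It stood at 59.5 and 61.0 CPM in the KD control libraries and at 31.3 and 31.5 in the knockdown libraries. The libraries of each group thus followed their labels, with log2 fold changes of 5.87 ± 0.06 (SE) and −0.94 ± 0.06.

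Markers of cell state differed between the same groups. The summed level of 10 adrenergic markers was 348 and 346 CPM in the parental libraries, 1367 and 1450 with ZMYND8 overexpression, 1054 and 1126 in KD controls and 847 and 977 with knockdown. All 9 adrenergic markers tested were higher with overexpression, where 31.7% of all genes were called higher and 29.1% lower. With knockdown 4 of 8 were lower and 0 higher, where 10.8% of all genes were lower and 13.4% higher. The defining marker TH was at or near 0 in every library. The summed level of 10 mesenchymal markers was 10771 and 11344 CPM in the parental libraries, 4222 and 3996 with overexpression, 6369 and 6240 in KD controls and 7774 and 7305 with knockdown. Of them 9 were lower with overexpression and 1, TWIST1 (1.31 on the log2 scale), was higher. With knockdown 5 were higher and 2 lower, PRRX1 (−0.98) and SNAI2 (−0.41), and in KD controls against parental cells 4 were higher and 6 lower. Of 10 proliferation markers, 5 were lower and 1 higher with overexpression, 3 were lower with knockdown, and 9 were lower and 1 higher in KD controls than in parental cells. All 8 adrenergic markers tested were higher in KD controls than in parental cells. In that comparison 33.6% of all genes were higher and 36.2% lower. The part of these shifts in the results below was not tested, and in RNA from whole cultures a change in the share of cells of a type and a change in RNA per cell cannot be told apart.

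The members lay in 16 blocks, a new block being opened where the starts of neighbouring members were over 1 Mb apart. Blocks of 5 or more members numbered 9 and held 207 of the genes. The coding sequences of the reference transcripts held a median of 12 zinc fingers, from 1 in ZNF428 to 32 in ZNF91. A KRAB-like box was found in 184 members and not in 33. Members with the box had a median exonic GC content of 42.7%, against 58.6% in those without it. At the level of sequence, 67 members shared at least 20% of their exonic 31-base sequences with other places in the genome and 24 overlapped exons of another gene over at least 20% of their length, and the counts of these are uncertain to that extent.

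Promoters are shown for 4 members that moved in opposite directions, ZNF544 and ZNF91 (higher with overexpression) and ZNF264 and ZNF460 (lower with overexpression and higher with knockdown). They were picked as examples and all hold the marked letters, which the promoters of ZNF536, ZNF844, ZNF415 and ZNF556, also higher with overexpression, do not. Each runs from 250 bases before to 50 bases after the gene start in RefSeq on GRCh38.p14, at chr19:58228664-58228963 on the plus strand for ZNF544, chr19:23395422-23395721 on the minus strand for ZNF91, chr19:57191250-57191549 on the plus strand for ZNF264 and chr19:57279732-57280031 on the plus strand for ZNF460. Capitals mark CCGGAAG, a core bound by ETS factors, or its reverse complement CTTCCGG.
ZNF544: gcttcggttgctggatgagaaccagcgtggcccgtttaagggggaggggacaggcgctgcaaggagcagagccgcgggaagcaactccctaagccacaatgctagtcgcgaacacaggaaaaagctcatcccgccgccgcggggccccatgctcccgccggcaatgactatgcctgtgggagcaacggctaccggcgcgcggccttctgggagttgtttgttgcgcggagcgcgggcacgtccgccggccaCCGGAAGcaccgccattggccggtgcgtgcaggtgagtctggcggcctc
ZNF91: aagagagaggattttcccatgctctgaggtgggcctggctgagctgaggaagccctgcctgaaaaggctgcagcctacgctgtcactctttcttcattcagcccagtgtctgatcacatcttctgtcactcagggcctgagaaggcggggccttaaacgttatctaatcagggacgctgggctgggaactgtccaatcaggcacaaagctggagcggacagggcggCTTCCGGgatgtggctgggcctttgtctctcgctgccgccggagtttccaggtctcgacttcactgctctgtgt
ZNF264: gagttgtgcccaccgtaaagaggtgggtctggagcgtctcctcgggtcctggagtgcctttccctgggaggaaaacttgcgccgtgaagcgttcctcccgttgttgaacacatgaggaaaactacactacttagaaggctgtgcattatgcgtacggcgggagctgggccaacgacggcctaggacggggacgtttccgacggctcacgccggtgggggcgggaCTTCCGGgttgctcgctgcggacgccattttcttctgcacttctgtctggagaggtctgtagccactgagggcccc
ZNF460: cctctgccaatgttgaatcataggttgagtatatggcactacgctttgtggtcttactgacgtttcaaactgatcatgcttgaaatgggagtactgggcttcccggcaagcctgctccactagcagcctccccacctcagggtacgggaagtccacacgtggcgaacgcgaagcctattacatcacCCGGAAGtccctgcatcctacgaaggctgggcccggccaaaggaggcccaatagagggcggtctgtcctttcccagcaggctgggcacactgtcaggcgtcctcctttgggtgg

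Of 42 members named by the rule and found in the promoter table, 17 held these letters. CCGGAAG on either strand was in 89 of the 194 member promoters that the RefSeq table holds (45.9%). It was in 36.3% of 193 promoters of ZNF genes on other chromosomes and in 17.6% of 541 promoters of other coding genes of chromosome 19. It was also in 14.2% of 15842 promoters of protein-coding genes and in 10.7% of all 27305 promoters. Members with a KRAB-like box held it in 49.1% of promoters and members without one in 29.03%. With overexpression, the median log2 fold change was 0.27 for members with the letters and 0.33 for members without them, and with knockdown the medians were −0.18 and −0.17. Other letters searched on both strands were AGGTCA, a half-site of retinoic acid receptors, in 12.4% of member promoters against 13.9% of all promoters, TGACGTCA in 3.61% against 1.98%, and TATAAA in 2.06% against 11.95%. In ZNF genes of other chromosomes the shares were 6.74%, 4.66% and 4.66%, in the same order. In other coding genes of chromosome 19 they were 8.13%, 4.62% and 5.36%, and in all protein-coding genes 11.7%, 2.59% and 9.63%. A match describes letters only and does not show that a factor binds there.

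The comparison of ZMYND8 overexpression with parental cells asked how the members differ between these groups. The groups differ in added ZMYND8, in the lentiviral vector and in G418 selection, which cannot be told apart. Zinc finger genes of chromosome 19 were called higher far more often than lower, most of them by less than 2-fold. Of 217 members, 132 (60.8%) were higher and 7 (3.23%) lower in the quasi-likelihood test of edgeR, with Benjamini-Hochberg adjusted p below 0.05 over all genes, where 31.7% of all 20835 genes tested were higher and 29.1% lower. The median log2 fold change was 0.30 (interquartile range 0.12 to 0.50), against 0.03 over all genes tested and −0.06 over genes with a count sum of at least 1000. Of the latter genes 29.3% were higher and 39.3% lower. The estimate was above 0 in 190 members (87.6%). When a change of at least 2-fold and a mean normalised count above 20 were also asked for, 11 of 217 members were higher and 0 lower. Both shares were smaller than those of all genes, of which 11.8% were higher and 6.84% lower by that rule.

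ZNF536 changed most among the members. It encodes a zinc finger protein of the brain known to restrain neuronal differentiation by retinoic acid, lies alone at chr19:30228290-30713538, and has no KRAB-like box. Its level was 1.34 and 2.19 CPM in the parental libraries and 42.5 and 44.9 with overexpression. It was 22.8 and 27.0 CPM in KD controls and 18.9 and 21.4 with knockdown. The overexpression libraries were the highest and the parental libraries the lowest of all 8, and no groups overlapped. The log2 fold change with overexpression was 4.61 ± 0.14 (adjusted p = 1e-09), or 24.4-fold. The decrease with knockdown was −0.30 ± 0.10 (adjusted p = 0.0439), and it was no longer called without KD control replicate 2 (−0.17) or without knockdown replicate 1 (−0.22).

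ZNF844, a KRAB zinc finger gene, stood at 2.05 and 2.01 CPM in parental cells and at 11.5 and 13.1 with overexpression, a log2 fold change of 2.60 ± 0.13 (adjusted p = 3.63e-08). The groups lay far apart, but 45.3% of its exonic bases overlap another gene of the table. ZNF544 stood at 1.81 and 1.64 CPM in parental cells and at 9.81 and 9.32 with overexpression (2.48 ± 0.13, adjusted p = 7.27e-08). Its KD control and knockdown levels overlapped, with 7.29 and 7.72 against 7.14 and 7.81 CPM. ZNF415 rose from 2.66 and 2.84 to 9.11 and 10.8 CPM (1.86 ± 0.14, adjusted p = 7.41e-07). In the other experiment it fell from 10.3 and 10.9 CPM in KD controls to 8.02 and 8.01 with knockdown (−0.40 ± 0.10, adjusted p = 0.0142), which was not called without KD control replicate 2 (−0.36). These 3 genes all carry a KRAB-like box.

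The rest of the 10 largest increases were ZNF556 (1.17), ZNF345 (1.13), ZNF681 (1.08), ZNF677 (1.07), ZNF497 (1.07) and ZNF738 (1.06), all past the adjusted threshold. ZNF677 was the most even of them, at 10.5 and 10.6 CPM in parental cells and 22.1 in both overexpression libraries. ZNF555, just outside the 10 named, was also above 1 (1.03 ± 0.07, adjusted p = 6.53e-07 in the same test). ZNF497 is a gene of low level that overlaps other genes over 52.3% of its exonic length. It reached the minimum of 1000 counts only through the overexpression libraries, which gave 277 and 240 of its 1016 counts, so its increase is tied to its choice as a member and is given as a description. Among genes of known role, ZNF382, a KRAB repressor studied as a tumour suppressor, stood at 23.1 and 22.0 CPM in parental cells and at 42.7 and 45.01 with overexpression (0.97 ± 0.06, adjusted p = 2.28e-07). The imprinted gene ZNF331 (0.42), the p53 restraining factor ZNF420 (0.42), ZNF808, a gene of pancreas development (0.27), ZNF568 (0.26) and ZNF304 (0.21) were also higher. ZNF274, which with TRIM28 and SETDB1 marks zinc finger genes themselves, was at 8.61 and 8.86 CPM against 8.05 and 9.04, and ZNF224 was at 29.1 and 27.6 against 28.3 and 29.4. In both of these the groups overlapped.

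The 7 members lower with overexpression were ZNF460 (−0.41), ZNF880 (−0.37), ZNF264 (−0.32), ZNF841 (−0.28), ZNF526 (−0.20), ZNF587 (−0.19) and ZNF146 (−0.16), and none reached 2-fold. When libraries were scaled by their totals alone, which moved the median of all genes from 0.03 to 0.29, 1 member was called lower, ZNF264 had an estimate of −0.06 that did not pass, and ZNF526, ZNF587 and ZNF146 had estimates above 0. ZNF146 (OZF, a protein made almost wholly of zinc fingers) also had an estimate of 0.01 once trends with gene length and GC content were taken out. Without parental replicate 2, 4 members were called lower. ZNF587 overlaps other genes over 35.0% of its exonic length and shares 45.7% of its 31-base sequences with other places.

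**Figure D1:**
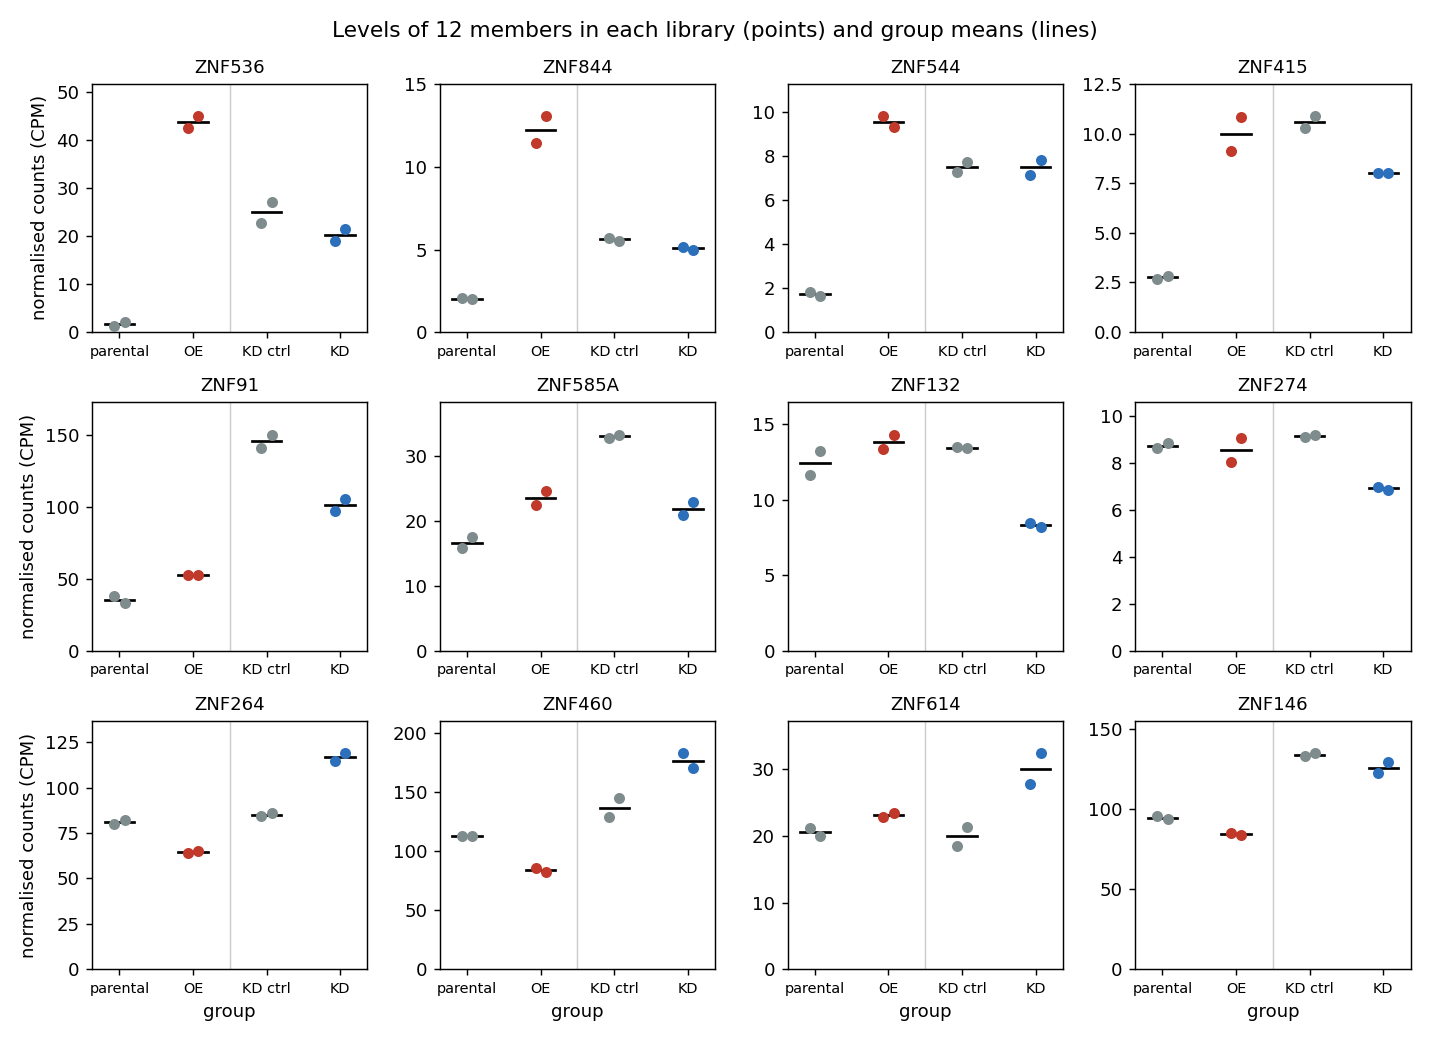
Levels of 12 members in CPM with TMM scaling (vertical axes, from 0) in each library (points) by group, with group means (black lines), where OE is ZMYND8 overexpression and KD knockdown. ZNF536, ZNF844, ZNF544 and ZNF415 are lowest in the parental libraries, whereas ZNF264 and ZNF460 are lowest with overexpression and highest with knockdown.

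The comparison of ZMYND8 knockdown with KD control asked for the response to less ZMYND8. Members were called lower more often than higher. Of 217 members, 70 (32.3%) were lower and 5 (2.30%) higher in edgeR's quasi-likelihood test, where 10.8% of all 19789 genes tested were lower and 13.4% higher. Among genes with a count sum of at least 1000, 14.8% were lower and 17.9% higher. The median log2 fold change was −0.18 (interquartile range −0.30 to −0.06) against −0.01 over all genes, and the estimate was below 0 in all but 35 members. No member changed at least 2-fold in either direction, where 0.596% of all genes were lower and 1.36% higher by that rule. The count of lower members rested on single libraries. It was 24 without KD control replicate 2 and 43 without knockdown replicate 1, and 30 with no filter on low counts.

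ZNF132 had the largest decrease. It stood at 13.5 and 13.4 CPM in KD controls and at 8.42 and 8.22 with knockdown, which do not overlap (−0.69 ± 0.09, adjusted p = 0.000388). In the overexpression experiment its levels were 11.6 and 13.2 CPM in parental cells and 13.3 and 14.3 with overexpression (0.16 ± 0.10, adjusted p = 0.175). The next were ZNF404 (−0.64, a member just inside the minimum of counts), ZNF583 (−0.61), ZNF585A (−0.59) and ZNF730 (−0.59), all with a KRAB-like box. The KD control libraries, with 143 and 151 counts, helped ZNF404 reach its sum of 1003. Its decrease is thus tied to its choice as a member and is given as a description. ZNF585A stood at 32.9 and 33.3 CPM in KD controls and at 20.9 and 22.9 with knockdown, and it moved the other way with overexpression, from 15.8 and 17.5 to 22.5 and 24.6 CPM (0.51 ± 0.08, adjusted p = 0.000346).

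ZNF91, the member with the most zinc fingers and a known repressor of SVA retrotransposons, stood at 141 and 150 CPM in KD controls and at 97.4 and 106 with knockdown (−0.52 ± 0.06, adjusted p = 0.000118). It stood at 37.9 and 33.1 CPM in parental cells and at 53.0 and 52.4 with overexpression (0.58 ± 0.07, adjusted p = 2.31e-05). Both changes were thus smaller than the gap between the control groups, where KD controls exceeded parental cells by 2.05 ± 0.07 on the log2 scale. ZNF93, a known repressor of LINE-1 elements, was higher with overexpression (0.47 ± 0.11) and had an estimate of −0.26 ± 0.09 with knockdown (adjusted p = 0.0716). ZNF274 was lower with knockdown, at 6.99 and 6.85 CPM against 9.12 and 9.20 in KD controls (−0.40 ± 0.10, adjusted p = 0.0168). ZNF224 (−0.32), ZNF420 (−0.28) and ZNF808 (−0.23) were lower as well.

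The 5 members higher with knockdown were ZNF614 (0.59), ZNF264 (0.46), ZNF460 (0.37), ZNF507 (0.32) and ZNF543 (0.26). ZNF264 stood at 84.3 and 85.8 CPM in KD controls and at 115 and 119 with knockdown. It stood at 79.9 and 82.2 CPM in parental cells and at 64.2 and 65.3 with overexpression, and neither pair of groups overlapped. ZNF460, the member with the highest level per exon length (31.8 RPKM over all libraries), stood at 129 and 144 CPM in KD controls, 182 and 170 with knockdown, 113 in both parental libraries, and 85.8 and 82.7 with overexpression. Both genes carry a KRAB-like box and lie close together on the plus strand, ZNF264 at chr19:57191500-57222846 and ZNF460 at chr19:57280051-57294069. ZNF805, between them, had estimates of −0.09 with overexpression and −0.01 with knockdown, neither past the threshold (chosen for its position after values were seen). Exons of another gene overlap 24.6% of the exonic length of ZNF460 and none of ZNF264.

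**Figure D2:**
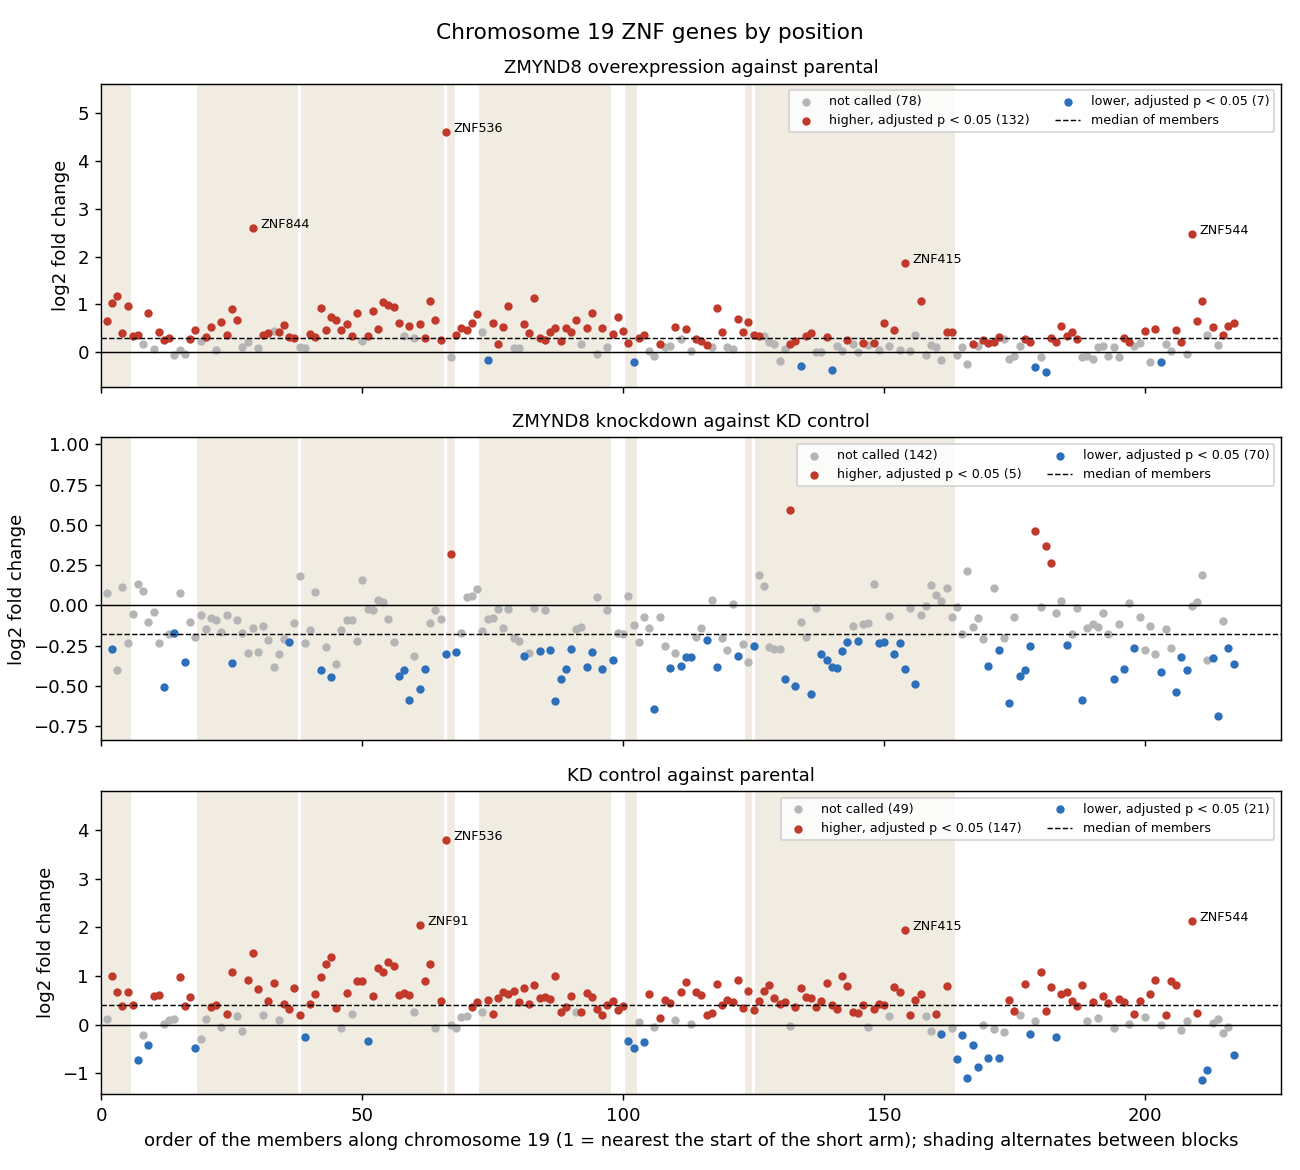
Log2 fold changes of the 217 members (vertical axes, scaled separately) in order along chromosome 19 (horizontal axis) in 3 comparisons, with called members in colour, blocks shaded in turn and dashed lines at the member medians. With overexpression 132 members are higher and 7 lower, with knockdown 70 are lower and 5 higher, and called members occur in blocks all along the chromosome.

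With overexpression the median was above 0 in all 9 blocks of 5 or more members, with differences in size. With knockdown it was below 0 in each of these except the block from ZNF302 to ZNF792. In the block from ZNF554 to ZNF77 (2.82 to 2.94 Mb), all 5 members were higher with overexpression, with a median of 0.97. In the block from ZNF101 to ZNF254 (19.7 to 24.1 Mb), which holds the ZNF91 family, 23 of 27 members were higher and 0 lower, with estimates above 0 in all 27 and a median of 0.56. The 5 members from ZNF302 to ZNF792 (34.7 to 35.0 Mb) were all higher, with a median of 0.51. From ZNF565 to ZNF573 (36.2 to 37.8 Mb) 18 of 25 were higher and 1 lower (median 0.42), and from ZNF653 to ZNF791 (11.5 to 12.6 Mb) 13 of 19 were higher and 0 lower (median 0.37). The medians were smaller in the 13 members from ZNF557 to ZNF846 (0.27, 8 higher) and in the 21 from ZNF576 to ZNF180 (0.23, 12 higher). Among blocks of 5 or more members they were smallest towards the end of the long arm. They were 0.17 in the 38 members from ZNF175 to ZNF331 (15, or 39.5%, higher, 2 lower) and 0.19 in the 54 from ZNF628 to ZNF446 (26, or 48.1%, higher, 3 lower). Over all genes tested 31.7% were higher and 29.1% lower. The share of higher members from ZNF175 to ZNF331 was the nearest to that of all genes among these blocks. Of the smaller blocks, ZNF507 (−0.10) and ZNF333 (0.10) stood alone with estimates that did not pass, and of the pair ZNF574 and ZNF526 1 was higher and 1 lower.

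With knockdown the medians of the 9 blocks of 5 or more members lay between −0.24 and 0.05. Over all genes tested 10.8% were lower and 13.4% higher. Of the 38 members from ZNF175 to ZNF331, 16 were lower and 1 higher (median −0.21), and of the 54 from ZNF628 to ZNF446, 19 were lower and 3 higher (median −0.18). Of the 25 from ZNF565 to ZNF573, 10 were lower (median −0.21), and of the 21 from ZNF576 to ZNF180, 8 were lower (median −0.24). The block from ZNF554 to ZNF77, first in size with overexpression, had the next largest decrease (median −0.24), with 1 of 5 called lower. The block from ZNF101 to ZNF254 had 7 of 27 lower (median −0.15), the block from ZNF557 to ZNF846 3 of 13 (median −0.11), and the block from ZNF653 to ZNF791 2 of 19 (10.5%, median −0.17), near the 10.8% of all genes. The block from ZNF302 to ZNF792 had a median of 0.05, with 1 of 5 lower. Differences between blocks were not tested, since neighbours share sequence by descent. Across 201 pairs of neighbours within blocks, the Pearson correlation of log2 fold changes was 0.12 with overexpression and 0.13 with knockdown. It was 0.31 in KD controls against parental cells. These values are a description of genes that are not independent.

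The largest change with overexpression in each block of 5 or more members was an increase throughout. Besides the genes above, these were ZNF558 between ZNF557 and ZNF846 (0.82 ± 0.06), ZNF792 (0.79 ± 0.07) and ZNF235 in the block from ZNF576 to ZNF180 (0.92 ± 0.09). ZNF558 stood at 25.9 and 26.5 CPM in parental cells and at 43.9 and 48.4 with overexpression. ZNF235 moved in both experiments, from 9.63 and 9.46 to 16.99 and 18.9 CPM with overexpression and from 15.8 and 17.9 to 13.02 and 12.8 with knockdown (−0.38 ± 0.09, adjusted p = 0.0121). In none of these did the groups overlap with overexpression.

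The overexpression and knockdown experiments share no library, so the overlap of their calls can be counted. Of the 132 members higher with overexpression, 46 (34.8%) were lower with knockdown, and these were 65.7% of the 70 lower with knockdown. Both shares lie near those of the members as a whole, of which 32.3% were lower with knockdown and 60.8% higher with overexpression. Among zinc finger genes of other chromosomes, 24 showed this pattern, or 20.2% of those higher with overexpression and 60% of those lower with knockdown. Over all genes tested in both, 722 were higher with overexpression and lower with knockdown, or 12.9% and 33.9% of the respective lists. The reverse pattern was found in 2 members, ZNF264 and ZNF460. ZNF614 and ZNF543 were higher in both, and ZNF880 and ZNF587 lower in both. The sizes of the changes were scarcely related, with a Pearson correlation of −0.09 and a Spearman correlation of −0.12 across the 217 genes.

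**Figure D3:**
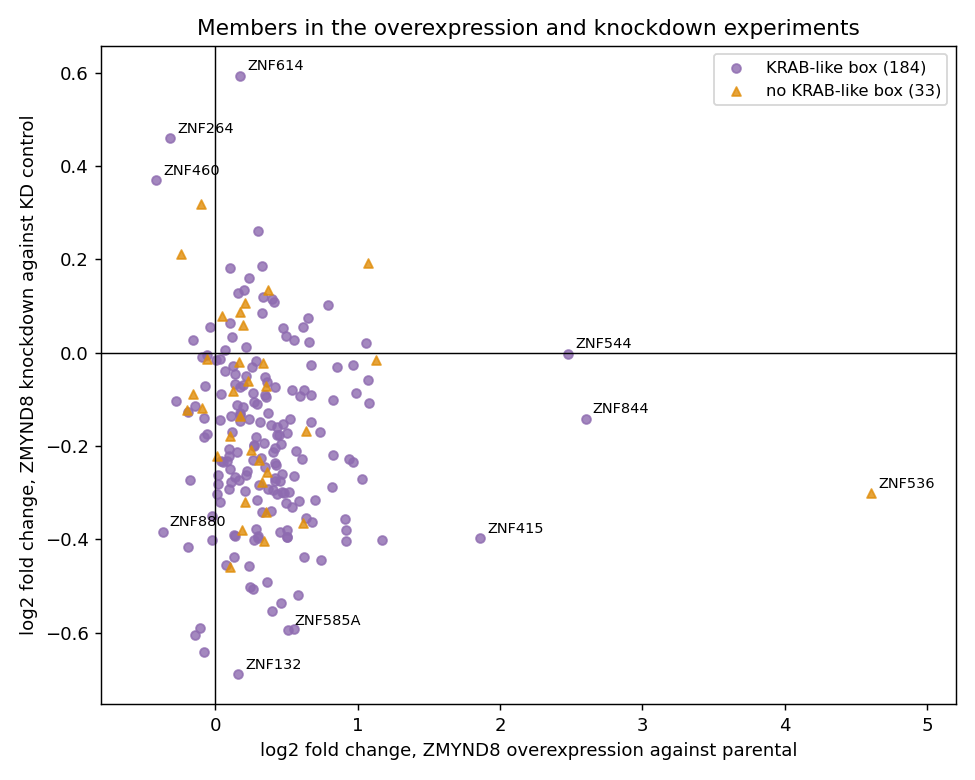
Log2 fold change of each member with ZMYND8 overexpression (horizontal axis) against that with knockdown (vertical axis), by presence of a KRAB-like box. Most members lie in the lower right, ZNF264 and ZNF460 lie in the upper left, and the largest increases with overexpression (ZNF536, ZNF844, ZNF544) have knockdown estimates at or above −0.30.

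The difference of the effects, overexpression minus knockdown, was tested in a fit over all 8 libraries. It was above 0 at the adjusted threshold in 148 members (68.2%) and below 0 in 5 (2.30%), where 24.6% of 22619 genes tested were above and 24.4% below. Among genes with a count sum of at least 1000, 26.6% were above and 36.3% below. The median difference was 0.49 on the log2 scale, against 0.06 over all genes. The members below 0 were ZNF460 (−0.79 ± 0.08, adjusted p = 1.76e-06), ZNF264 (−0.78 ± 0.07, adjusted p = 2.02e-07), ZNF524 (−0.46), ZNF507 (−0.43) and ZNF614 (−0.42), and 3 members were called below 0 without knockdown replicate 2. By the 2-fold rule 25 of 217 members were above 0, a share near the 11.1% of all genes. By the same rule 0 members were below 0, where 7.66% of all genes were. In the block from ZNF101 to ZNF254, 26 of 27 members were above 0 with a median of 0.72.

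KD control and parental cells both lack added ZMYND8 but differ in vector, Dox and experiment, which cannot be told apart. Members were called higher in KD controls more often than lower. Of 217, 147 (67.7%) were higher and 21 (9.68%) lower, where 33.6% of all 20385 genes tested were higher and 36.2% lower, and the median was 0.41. Among genes with a count sum of at least 1000, 36.5% were higher and 41.2% lower. By the 2-fold rule 15 of 217 were higher and 2 lower, smaller shares than the 10.8% of all genes higher and 10.8% lower. Its parental libraries are those of the overexpression comparison, so values of the pair are given side by side only. ZNF536 was higher by 3.80 ± 0.17 in KD controls and by 4.61 ± 0.14 with overexpression, ZNF544 by 2.13 and 2.48, ZNF415 by 1.95 and 1.86, and ZNF844 by 1.47 and 2.60. ZNF91 was higher by 2.05 in KD controls and by 0.58 with overexpression, and ZNF121, at 124 and 123 CPM in parental cells and 244 and 240 in KD controls, by 0.98 and 0.05. Summed over all members, the level was 4101 and 4081 CPM in parental cells, 4818 and 4950 with overexpression, 5312 and 5458 in KD controls and 4824 and 5064 with knockdown, so the parental libraries were the lowest of the 8 and the KD control libraries the highest.

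In this comparison of controls the members differed by the presence of a KRAB-like box. Of all genes tested, 33.6% were higher and 36.2% lower in KD controls. Of 184 members with the box, 138 (75%) were higher and 6 (3.26%) lower (median 0.45). Of 33 without it, 9 (27.3%) were higher and 15 (45.5%) lower (median −0.21). The lower ones included ZNF497 (−1.13), ZNF524 (−1.10), ZNF837 (−0.94), ZNF784 (−0.86) and ZNF358 (−0.72), and 12 of the 21 lay in the block from ZNF628 to ZNF446. ZNF497 and ZNF837 lie just inside the minimum of counts, with 1016 and 1066. Their higher parental counts helped them reach it, so their decreases are tied to their choice as members and are a description. Exonic GC content moves with this division, and once trends with gene length and GC content were taken out the medians were 0.37 and −0.03. With overexpression, 31.7% of all genes were higher and 29.1% lower. There 114 members with the box (62.0%) were higher and 5 (2.72%) lower (median 0.32), against 18 (54.5%) and 2 (6.06%) without it (median 0.21). Without the length and GC trends these medians were 0.39 and 0.01, so the median of members without the box lay near 0 on that scale, and ZNF358 turned from 0.37 to −0.16. The difference of effects had medians of 0.52 with the box and 0.30 without it, and of 0.59 and 0.08 on that scale. With knockdown, 61 members with the box (33.2%) were lower and 4 (2.17%) higher (median −0.20). Without it, 9 (27.3%) were lower and 1 (3.03%) higher (median −0.12), where 10.8% of all genes were lower and 13.4% higher. The number of zinc fingers divided the overexpression medians little, with 0.28 for 10 or fewer fingers, 0.33 for 11 to 14 and 0.27 for 15 or more.

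The silencing pathway that KRAB zinc fingers use was followed in a list of 34 genes, of which 33 were tested. With overexpression 9 (27.3%) were higher and 8 (24.2%) lower (median 0.06), both below the 31.7% and 29.1% of all genes. With knockdown 2 (6.06%) were higher and 0 lower (median −0.01), where 13.4% of all genes were higher and 10.8% lower. TRIM28, the corepressor, had log2 fold changes of 0.13 ± 0.05 with overexpression (adjusted p = 0.0493) and −0.04 ± 0.05 with knockdown (adjusted p = 0.609). SETDB1, the H3K9 methyltransferase, stood between 72.0 and 78.1 CPM in all 8 libraries. By the 2-fold rule, TRIM24 (1.52 ± 0.05), a relative of TRIM28 that binds retinoic acid receptors, and ATF7IP2 (3.95 ± 0.30), a paralogue of the SETDB1 partner ATF7IP, were higher with overexpression. TRIM24 stood at 49.9 and 49.6 CPM in parental cells and at 144 and 140 with overexpression. ATF7IP2 stood at 0.118 and 0.213 CPM in parental cells and at 2.45 and 2.82 with overexpression. Its fold changes against parental cells thus rest on a very low level. In KD controls against parental cells, 15 of the list (45.5%) were higher and 11 (33.3%) lower, where 33.6% and 36.2% of all genes were, among them TRIM24 (1.59 ± 0.06) and ATF7IP2 (2.91 ± 0.37) at 2-fold or more higher and SUV39H1 (−1.12 ± 0.09) lower, and TRIM28 was lower by −0.89 ± 0.05.

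**Figure D4:**
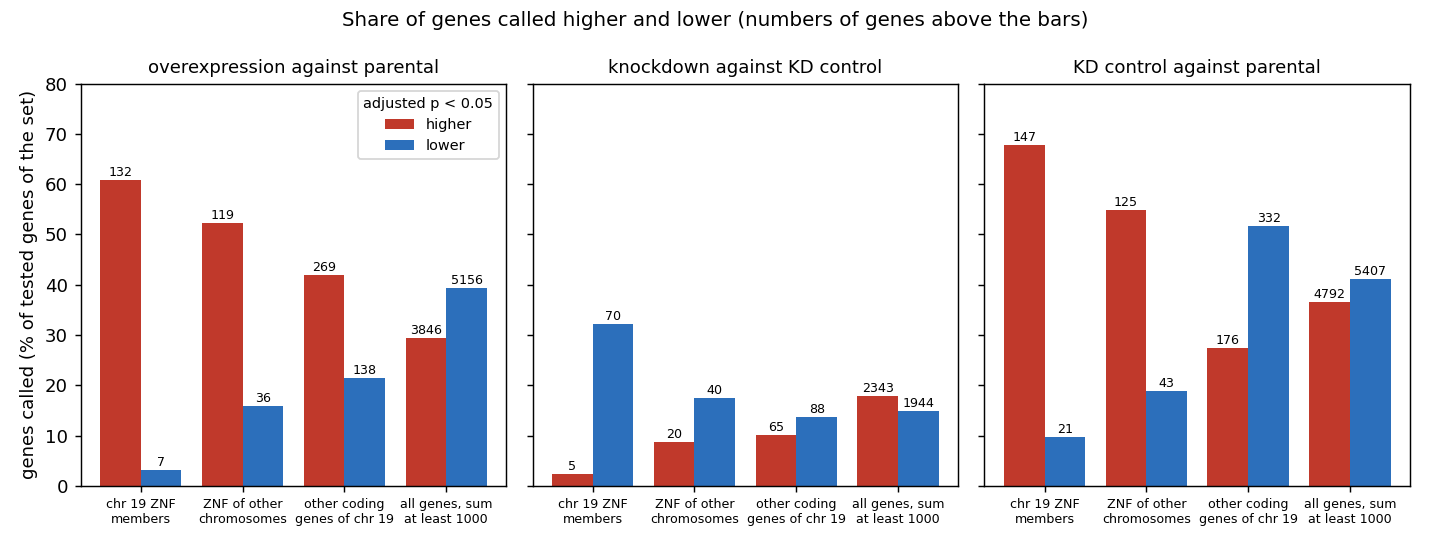
Share of tested genes called higher or lower at an adjusted p below 0.05 (vertical axis, % of each set, with numbers of genes above the bars) for the members and 3 other sets in 3 comparisons. The members have the highest share of higher genes with overexpression (60.8%) and the highest share of lower genes with knockdown (32.3%) of the 4 sets.

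Zinc finger genes of other chromosomes, kept by the same minimum of counts, had medians of the same sign that lay nearer to 0. Of 228, 119 (52.2%) were higher and 36 lower with overexpression (median 0.22), and 40 (17.5%) were lower and 20 higher with knockdown (median −0.07). Of the other protein-coding genes of chromosome 19, 269 of 643 were higher and 138 lower with overexpression (median 0.10), and 88 of 642 were lower and 65 higher with knockdown (median −0.02). In KD controls against parental cells, the medians were 0.24 for zinc finger genes of other chromosomes and −0.23 for other coding genes of chromosome 19. Once length and GC trends were taken out, the overexpression medians were 0.34 for the members, 0.17 for zinc finger genes of other chromosomes and −0.16 for other coding genes of chromosome 19. The medians of other coding genes of chromosome 19 turned on that scale in the other comparisons too, to 0.04 in KD controls against parental cells and to 0.0013 with knockdown. The differences between these sets were not tested.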

How the data were processed

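RNA was measured in 8 libraries, grouped by the titles and treatments of the labels. The authors deposited raw counts of reads per gene. Their methods name Trim_Galore for trimming, Hisat2 for alignment to GRCh38 and featureCounts with a GENCODE annotation for counting. The strand setting is not given in the sources used here, so overlapping genes are uncertain whichever their strand, and reads that match several places may be lost to recently duplicated genes. Of 60662 lines, 3 that hold 1 gene broken over lines were left out.

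Counts were filtered with filterByExpr, scaled with TMM and entered in the two-sided quasi-likelihood test of edgeR 4.0.16 (R 4.3.3) over all genes, without the replicate number, at a Benjamini-Hochberg adjusted p below 0.05. The fits were tested on simulated counts. Symbols came from GENCODE release 44, and 60418 identifiers matched. Zinc fingers (C, 2 to 4 residues, C, 12 residues, H, 3 to 5 residues, H) and KRAB-like boxes (at least 11 of 21 conserved positions) were sought in translated GENCODE coding sequences, in place of the planned RefSeq proteins. Promoters came from RefSeq. The members, lists and tests were chosen with earlier results of these data known.

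Named were, with overexpression, the 10 largest increases and 10 largest decreases among members called whose groups did not overlap, 5 and 5 in the other comparisons, the 5 of highest level per length, the largest change in each block of 5 or more, and 12 members of known role. Pathway genes were named where called at 2-fold or more, plus TRIM28 and SETDB1. Alternatives were RLE factors, library totals alone, no filter on low counts, DESeq2 (version 1.42.0), 1 fit over all 8 libraries, the replicate block, loess correction for gene length and GC content (span 0.5, recentred), both together, leaving out each library, minimums of 500 and 2000 counts, leaving out members with shared or overlapping sequence, and a 2-fold rule.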

Additional observations from a re-analysis of the deposited data

How the results depend on the processing

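Directions of the members' counts and medians held under every alternative run, except that the 2-fold rule called no member with knockdown. The medians of other coding genes of chromosome 19 turned with length and GC trends taken out, from 0.10 to −0.16 with overexpression, from −0.02 to 0.0013 with knockdown and from −0.23 to 0.04 in the control comparison. With library totals alone the median of all genes moved to 0.29 with overexpression, the members' median to 0.55 with 1 lower, the knockdown median to −0.24 and the median difference of effects to 0.81 with 2 below 0. With length and GC trends taken out, 11 members were lower with overexpression and 9 differences of effects were below 0 (11 and 10 with the replicate block added, with a median of 0.35 with overexpression), and the median of the control comparison was 0.34 (0.35 with the block). With no filter on low counts, 30 members were lower with knockdown and the median difference was 0.41. Without members that share 31-base sequences, 98 differences were above 0, of 150 members. DESeq2 called 100 higher and 5 lower with overexpression and 52 lower with knockdown. By the 2-fold rule, of 217 members 11 were higher and 0 lower with overexpression and 0 and 0 with knockdown. That rule called 15 and 2 in the control comparison, and 25 and 0 in the difference. The shares of all genes were 11.8% and 6.84%, 1.36% and 0.596%, 10.8% and 10.8%, and 11.1% and 7.66%, in that order.

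Leaving out 1 library at a time gave 108 to 127 higher and 4 to 7 lower with overexpression (medians 0.27 to 0.31), 24 to 67 lower and 4 to 5 higher with knockdown (medians −0.22 to −0.15), 130 to 146 higher and 16 to 20 lower in the control comparison (medians 0.37 to 0.43), and 125 to 142 above and 3 to 5 below 0 in the difference (medians 0.45 to 0.54). A group left with 1 library was assumed to vary like the other.

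Estimates of named members that changed sign were, with overexpression and library totals alone, ZNF526 at 0.053, ZNF587 at 0.063, ZNF146 at 0.10 and ZNF507 at 0.15, and without length and GC trends ZNF146 at 0.012 (0.014 with the block) and ZNF358 at −0.16, with and without the block. In the difference of effects, ZNF146 was at 0.24 and ZNF121 at 0.28 with library totals alone, and ZNF358 at −0.42 without length and GC trends, with and without the block. The cause was not tested.

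The replicate number as a block gave 136 higher and 8 lower with overexpression, 89 lower and 6 higher with knockdown, 143 higher and 19 lower in the control comparison and 155 above and 5 below 0 in the difference. Deviations of same-numbered libraries correlated at 0.12 with overexpression, 0.19 with knockdown and −0.21 between the controls, and nothing in the labels pairs the libraries. Crossing the numbers of the controls, chosen after seeing the data, gave 151 higher and 21 lower.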
